A study of Drosophila melanogaster with 4 samples.

Results

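Isolated H3K23ac clusters are regions of significant H3K23ac enrichment with no other region near them in the deposited list for both replicates. Histone H3 acetylated at lysine 23 was profiled by ChIP-seq (chromatin immunoprecipitation, then sequencing) of nuclei from Drosophila melanogaster larvae of the third instar, all of the wild-type strain Oregon-R. The series held 4 libraries, 2 H3K23ac precipitates (replicates 1 and 2) and 2 inputs, which are chromatin DNA sequenced without an antibody and which served as their controls. The regions came from 3 deposited lists, one per precipitate and one for the replicate set of both, in coordinates of FlyBase release 5. An isolated cluster was a replicate-set cluster on 2L, 2R, 3L, 3R or X that was under 8000 bp wide and had at least 5000 bp without another replicate-set cluster on each side. These conditions were met by 1141 of the 17999 clusters of the set, or 6.36% of the 17942 on the 5 arms. They were chosen by position and width in the replicate set, so their numbers, widths, free distances and scores in that list describe the choice and are given without a test. Without read totals, sequencing depth is unknown. The labels do not say whether the replicates came from separate larvae, and their spread may be technical.

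Lysine 23 lies in the tail of histone H3 that projects from the nucleosome. In Drosophila it is acetylated by Enok, an enzyme of the MYST family of acetyltransferases, and acetylation of H3 tails is commonly associated with accessible, active chromatin. Larvae of this stage hold imaginal cells, which divide and form the adult, beside larval cells with polytene chromosomes, in which some heterochromatic sequence is replicated less than the rest. In nuclei pooled from such tissues, a mark present in few cells and a mark that is weak in all cells cannot be told apart.

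The isolated clusters were short and together covered little sequence. They summed to 2.13 Mb, which was 4.29% of the sequence in replicate-set clusters on the 5 arms. Their width ranged from 1001 to 7941 bp with a median of 1489 bp and quartiles of 1157 and 2115 bp. The other 16060 clusters under 8000 bp had a median width of 1889 bp. Narrow regions were frequent among the isolated ones: 417 of them (36.5%) were narrower than 1301 bp, the width of the narrowest cluster in either replicate's list, compared with 22.8% of the other clusters under 8000 bp. At the wide end, 5.08% of isolated and 13.9% of other clusters reached 4000 bp. Another 17 clusters had the free distance but were at least 8000 bp wide and were not counted.

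The free distance around an isolated cluster was usually far longer than the minimum. Its median was 7613 bp on the shorter side and 13912 bp on the longer side, whereas the median gap between neighbouring clusters on the 5 arms was 1435 bp. The shorter side reached 10000 bp in 343 clusters and 20000 bp in 43. The first or last cluster of an arm, which has no neighbour on one side, accounted for 5 members. The limit of 5000 bp cut through a continuous range of distances. The 3 members nearest to it had shorter sides of 5001, 5005 and 5005 bp, and the nearest clusters outside had 4999, 4999 and 4997 bp. None of the 3 inside overlapped a cluster of either replicate, and 1 of the 3 outside overlapped both. Around the width limit the nearest members were 7941, 7931 and 7727 bp wide and the nearest others with the free distance were 8111, 8619 and 8765 bp. All 6 of these overlapped replicate 2, and 5 of them overlapped replicate 1.

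The X chromosome held isolated clusters most densely. It had 353 of them, or 15.7 per Mb, and the autosomal arms had 788, or 8.16 per Mb, a ratio of 1.93. Among the autosomal arms the density was 9.13 per Mb on 2L, 8.88 on 3L, 8.17 on 3R and 6.24 on 2R. Of all replicate-set clusters on X, 12.0% were isolated (95% exact binomial interval 10.8 to 13.2), compared with 5.25% on the autosomal arms (interval 4.90 to 5.62). Intervals here and below are Clopper-Pearson intervals and cover counting error only. The set as a whole was thinner on X, where the median gap was 2022 bp and clusters covered 30.8% of the sequence. On the autosomal arms the median gap was 1359 bp and the coverage 44.3%.

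The excess of isolated clusters on X depended on the list in which isolation was defined. When the same width and distance conditions were applied within replicate 1's own list, X had 309 (13.8 per Mb) and the autosomal arms 1706 (17.7 per Mb), a ratio of 0.780. Replicate 2's own list gave 417 for X (18.6 per Mb) and 1456 for the autosomes (15.1 per Mb), a ratio of 1.23. Clusters of any kind on X numbered 622 in replicate 1, 1632 in replicate 2 and 2943 in the set, and those on the autosomal arms 5628, 10110 and 14999. The share of a list's X clusters that were isolated was above the autosomal share in each list, at 49.7% against 30.3% in replicate 1 and 25.6% against 14.4% in replicate 2. List length moved with this ratio, and its part in it was not tested.

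**Figure D1:**
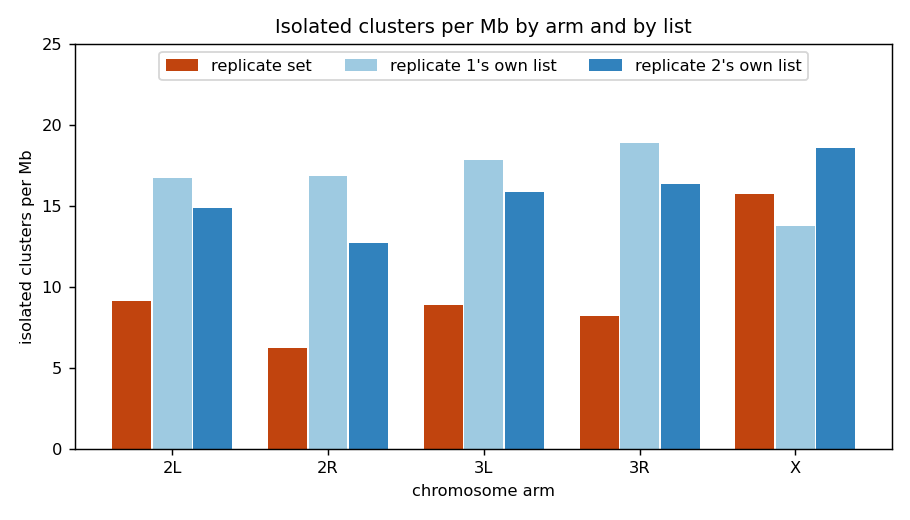
Isolated clusters per Mb of each chromosome arm (bars), with isolation defined within the replicate set, replicate 1's own list or replicate 2's own list. In the set the X bar (15.7 per Mb) stands above the 4 autosomal arms (6.24 to 9.13), whereas in replicate 1 it is the lowest of the 5 (13.8).

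Isolation within a replicate's own list and isolation within the set were set side by side in both directions. Of replicate 1's 2015 isolated clusters, 136 (6.75%) overlapped an isolated cluster of the set, and 156 overlapped set clusters of at least 8000 bp. For replicate 2 the same counts were 450 of 1873 (24.0%) and 11. Like shares over all clusters of a replicate's list were not taken, so these shares are called neither low nor high. On the 5 arms, all 6250 clusters of replicate 1 met 149 isolated clusters of the set, and all 11742 of replicate 2 met 495. Those 2 numbers count clusters of the set, not of the replicate. In the opposite direction, 91.3% of the 149 members found in replicate 1 and 90.9% of the 495 found in replicate 2 met a cluster that was itself isolated in that replicate. Over all clusters of the lists on the 5 arms, 32.2% and 16.0% were isolated. The set holds nearly all replicate clusters, so that empty flanks in the set mostly fix these high shares. A replicate cluster absent from the set lay within 5000 bp of 5 members in replicate 1 and of 42 in replicate 2, or 4.12% of members in either.

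Beyond the flanks that the rule required to be empty, most isolated clusters lay in thinly covered surroundings, so the name of sparse chromatin fitted most but not all of them. From 5 to 50 kb beyond each edge, set clusters covered a median of 29.5% of the sequence around isolated clusters and 45.6% around other clusters under 8000 bp. For 837 isolated clusters (73.4%) this share was below the average of their arm, compared with 42.3% of the others. The remaining members stood alone in surroundings at or above the arm's average, up to 74.7% covered. Each replicate showed the same order. The surroundings were covered to a median of 4.43% around isolated and 9.79% around other clusters in replicate 1, and to 14.7% and 26.1% in replicate 2. The difference was present within X (23.3% and 35.0% in the set) and within the autosomal arms (32.8% and 47.4%). Free flanks and thin surroundings are not independent measures of a list.

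Along the arms, isolated clusters were most frequent in megabases of intermediate to low coverage. The 117 full 1 Mb bins held between 0 and 25 of them, with a median of 16 in the 22 bins of X and 8 in the 95 autosomal bins. Their number fell with the covered share of the bin (Spearman's rho -0.625 across bins, -0.451 within X and -0.520 within the autosomal arms). These values describe bins of 1 list, whose coverage itself limits how many isolated clusters a bin can hold. Autosomal bins with coverage from 50 to 60% held a median of 6 isolated clusters, those from 40 to 50% held 9, and those from 30 to 40% held 12.5. In the last class the 7 bins of X held a median of 17. The 3 autosomal bins under 10% coverage held none. Of these, 2 held no cluster of any kind, and the bin from 22000001 to 23000000 of 2L held 30 clusters, 0 of them isolated. The bin from 3000001 to 4000000 of X held the most, 25, followed by the bin from 12000001 to 13000000 of X with 24, where set clusters covered only 14.2%. On the autosomal arms the highest count was 18, in the bin from 13000001 to 14000000 of 2L.

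**Figure D2:**
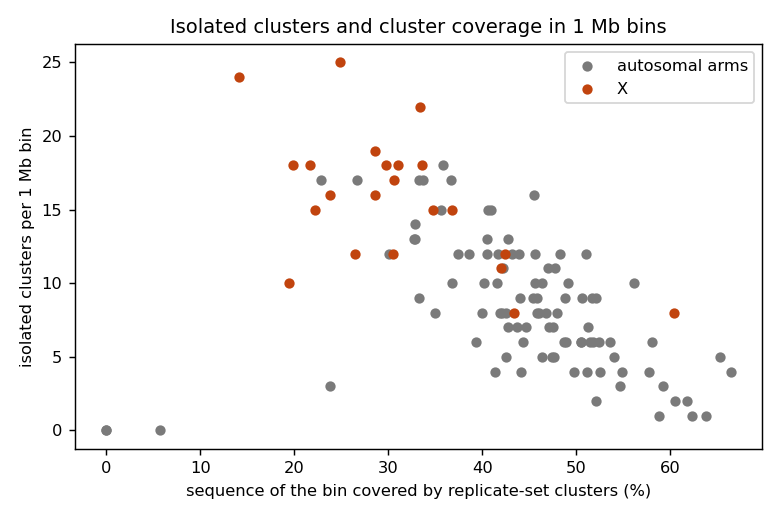
Number of isolated clusters in each full 1 Mb bin (vertical axis) against the share of the bin covered by replicate-set clusters (horizontal axis, %), one point per bin, X and autosomal arms in separate colours. Bins from 30 to 40% coverage hold a median of 17 on X and 12.5 elsewhere, and the 3 autosomal bins under 10% hold none.

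The end of each arm that lies at the telomere held fewer isolated clusters than the rest of that arm averaged. The 3 bins with none lay elsewhere. The full 1 Mb bin nearest the telomere had 1 on 2L, against a mean of 9.50 ± 4.74 (SD over bins) in the rest of the arm. It had 2 on 3L (9.39 ± 4.40 in the rest), 1 on 3R (8.69 ± 3.93), 4 on 2R (6.30 ± 3.50) and 11 on X (16.0 ± 4.62). The value lay below the mean of the rest on 5 of 5 arms, by more than 1 SD on 2L, 3L, 3R and X. Set clusters covered 41.9% of this bin on X and from 60.5 to 66.5% of it on the other arms, more than the 30.3% and 40.6 to 45.9% that the rest of these arms averaged.

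Some isolated clusters followed one another. In 634 of the 1141 (55.6%) the next cluster to the left or right was isolated as well, which gave 153 pairs and 90 runs of 3 or more in unbroken order. The rule already leaves such a neighbour 1 free side. Across a free side of at least 5000 bp, the neighbour was isolated for 34.3% of the 2277 such sides of isolated clusters and for 28.4% of the 5269 of other clusters. Membership of a pair or run applied to 66.0% of the isolated clusters of X and 50.9% of those on the autosomal arms. The longest runs held 7 clusters and both lay on X. From 5011658 to 5090110, none of the 7 overlapped a cluster of either replicate. From 16222486 to 16298016, by contrast, 5 of the 7 overlapped a cluster of replicate 2 and none overlapped replicate 1.

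The authors' score, which is their only value per cluster and whose scale no header states, was similar in isolated and other clusters. Isolated clusters had a median of 0.394 with quartiles of 0.343 and 0.448. The others under 8000 bp had a median of 0.383 with quartiles of 0.339 and 0.433. Isolated clusters had the higher median in 8 of 8 width classes, for example 0.396 and 0.372 from 1001 to 1300 bp and 0.488 and 0.452 from 4000 bp upwards. Part of this went with X, where isolated clusters had a median of 0.439 and others 0.432, whereas the autosomal medians were 0.376 and 0.375. Averaged after weighting the others to the widths of the isolated clusters, the difference in mean score was 0.0126 on X and 0.0175 on the autosomal arms, which is small beside the quartile range.

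Fewer isolated clusters than clusters in general were also found in a single replicate. Of the 1141, 149 shared at least 1 bp with a replicate 1 cluster (13.1%, interval 11.2 to 15.2), against 27.2% of all set clusters on the 5 arms. In replicate 2 it was 495 (43.4%, interval 40.5 to 46.3), against 55.5%. The mean over replicates was 28.2 ± 21.4% (SD, n = 2), and replicate 2, whose list is the longer, exceeded replicate 1 by 3.32-fold. For the other clusters under 8000 bp the shares were 25.1% and 54.3%, a 2.16-fold difference and a mean of 39.7 ± 20.7% (SD, n = 2). Within a replicate, isolated clusters differed from these others by -12.0 points in replicate 1 and by -10.9 points in replicate 2, a mean of -11.5 ± 0.784 points (SD, n = 2). An exact paired permutation test over 2 replicates cannot give a two-sided p below 0.5, and both replicates also went into the set.

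Few isolated clusters were found in both replicates. Both lists held 106 of them (9.29%, interval 7.67 to 11.1), against 21.9% of all set clusters on the 5 arms. At least 1 list held 538 (47.2%, interval 44.2 to 50.1), against 60.8%. A total of 389 (34.1%) were found only in replicate 2, near the 33.6% of all set clusters on the 5 arms. Only replicate 1 held 43 (3.77%), against 5.31%. Neither held 603 (52.8%), against 39.2%. These groups differed in width more than in score or in distance. The median width was 3575 bp for those in both, 1907 bp for those only in replicate 2, 1653 bp for those only in replicate 1 and 1199 bp for those in neither. Median scores were 0.460, 0.400, 0.384 and 0.383 in this order, and medians of the shorter free side were 6808, 7433, 7175 and 7955 bp.

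**Figure D3:**
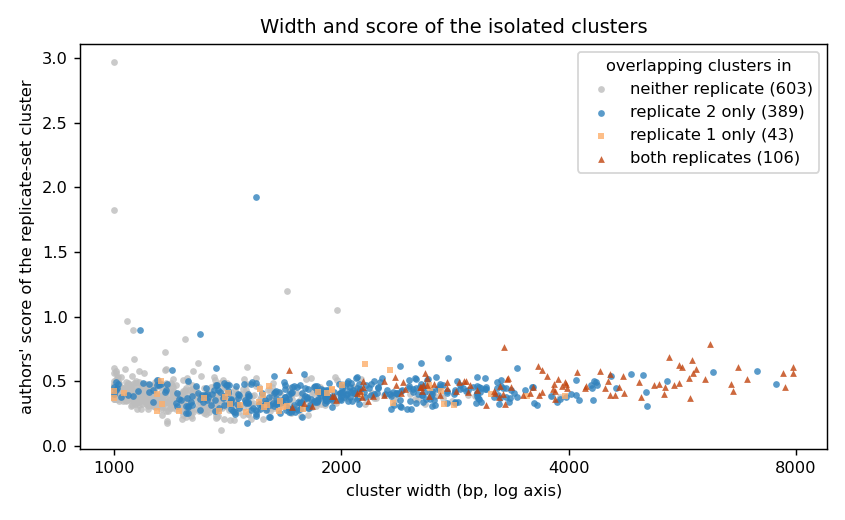
Width (bp, log axis) and authors' score of the 1141 isolated clusters, one point per cluster, with colour and shape giving the replicate lists in which it has an overlapping cluster. The 106 clusters found in both replicates lie mostly to the right (median 3575 bp), the 603 found in neither mostly to the left (median 1199 bp), and the 5 scores above 1 belong to clusters of 1001 to 1973 bp.

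Width therefore had to be taken into account when isolated and other clusters were compared. Below 1301 bp, 8 of 417 isolated clusters (1.92%) overlapped replicate 1 and 42 (10.1%) overlapped replicate 2, and 0 overlapped both. This allows a share of up to 0.719% when the limit is set at 3 counts and of 0.881% by the exact interval. From 2000 to 2499 bp the shares were 17.9% and 75.5%, and from 4000 to 7999 bp they were 65.5% and 100%, the latter 58 of 58 clusters. Other clusters of these 3 width classes gave 2.54%, 25.9% and 71.7% in replicate 1 and 8.84%, 73.7% and 96.5% in replicate 2. In replicate 1 the share of isolated clusters was the lower one in 8 of 8 width classes, and in replicate 2 it was the higher one in 7 of 8, although the intervals of isolated and other clusters overlapped in each class.

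**Figure D4:**
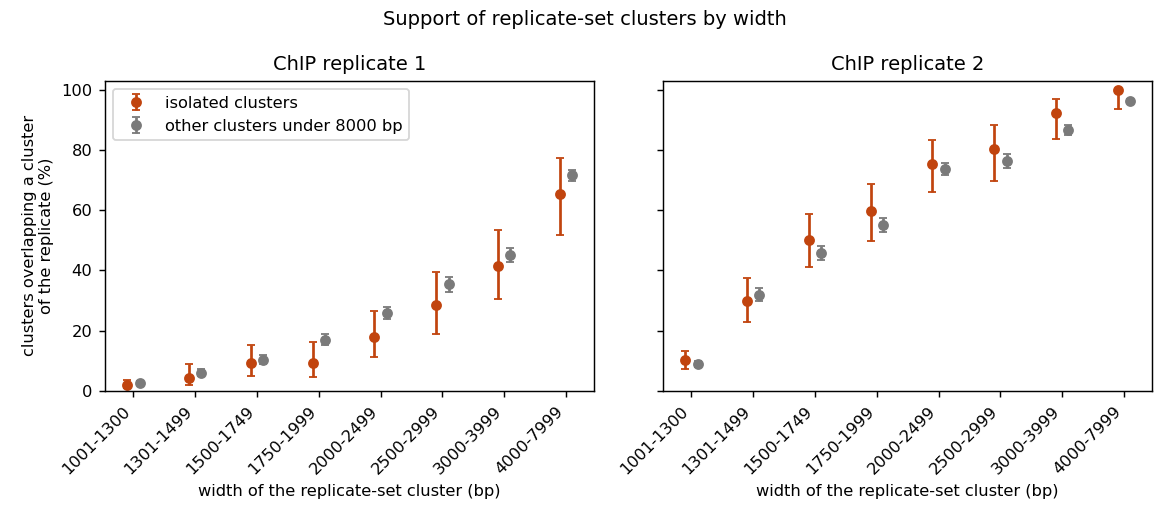
Share of replicate-set clusters that overlap a cluster of replicate 1 (left) or replicate 2 (right), in %, by width class of the set cluster, for isolated clusters and the other clusters under 8000 bp. Bars are 95% exact binomial intervals, and at equal width the isolated points lie slightly below the others in replicate 1 (17.9 and 25.9% from 2000 to 2499 bp) and near or slightly above them in replicate 2 (75.5 and 73.7%).

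At equal width isolated and other clusters of the 5 arms differed less in support than before weighting, and the replicates went in opposite directions. With the other clusters weighted to the widths of the isolated ones in classes of 250 bp, 16.0% of them would overlap replicate 1, and the difference of the isolated clusters from that share was -2.95 percentage points. In replicate 2 the weighted share was 41.0% and isolated clusters lay 2.38 points above it. The mean difference was -0.285 ± 3.77 points (SD, n = 2). Because the 2 opposite differences make this SD, a mean inside it does not show equal support. For at least 1 replicate the difference was 0.805 points. For both replicates it was -1.38 points (9.29% of isolated clusters and a weighted 10.7% of the others), and within X it was -2.68 points (4.25% and 6.93%). Weighted within X alone the differences were -3.22 points in replicate 1 and 5.06 in replicate 2, and within the autosomal arms -2.28 and 1.37.

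Replicate 1 held a lower share of the isolated clusters of X than of the autosomal ones, and the same order was seen for other clusters. On X, 31 of 353 (8.78%, interval 6.04 to 12.2) overlapped replicate 1 and 157 (44.5%, interval 39.2 to 49.8) overlapped replicate 2. On the autosomal arms the counts were 118 of 788 (15.0%, interval 12.6 to 17.7) and 338 (42.9%, interval 39.4 to 46.4). Both replicates held 15 of the isolated clusters of X (4.25%) and 91 of the autosomal ones (11.5%). Of the other clusters under 8000 bp on X, replicate 1 held 18.2%, replicate 2 held 49.1% and both held 12.7%. On the autosomal arms these shares were 26.4%, 55.3% and 20.7%. By arm, the share of isolated clusters in at least 1 replicate was lowest on 2L (36.7%) and highest on 2R (57.6%). It was 43.1% on 3L, 51.8% on 3R and 49.0% on X, against 60.8% of all set clusters on the 5 arms. Other clusters were not counted by single autosomal arm, so these arm differences need not be particular to isolated clusters. The isolated clusters of 2R were also the widest, with a median of 1663 bp against 1420 bp on 2L.

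Support fell gradually with the distance to the nearest cluster, without a step at 5000 bp. Among all clusters under 8000 bp, 28.9% of those with under 500 bp on the shorter side overlapped replicate 1 and 59.0% overlapped replicate 2. From 2500 to 4999 bp, just below the limit, it was 17.2% and 44.9%, and from 5000 to 7499 bp, just above it, 15.9% and 47.7%. From 10000 to 19999 bp it was 9.00% (interval 6.01 to 12.8) and 38.7% (interval 33.1 to 44.4). For the 43 clusters with at least 20000 bp on both sides, 27 of them on X, it was 9.30% (interval 2.59 to 22.1) and 32.6% (interval 19.1 to 48.5). Median width fell along the same series, from 1999 bp in the first class to 1603 bp from 5000 to 7499 bp and 1365 bp in the last, and the share of X rose from 13.9% to 62.8%. The part of width and of X in the fall was not tested within these classes.

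**Figure D5:**
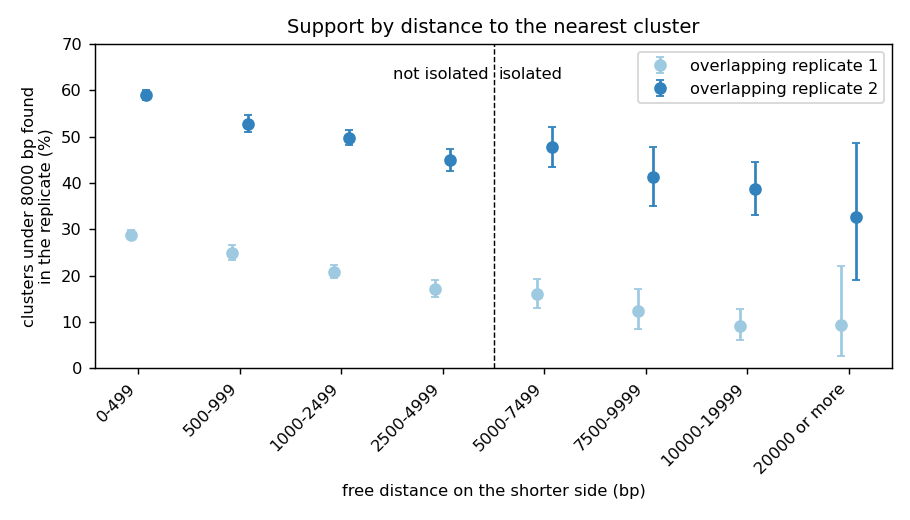
Share of replicate-set clusters under 8000 bp that overlap a cluster of each replicate (%, points with 95% exact binomial intervals), by the free distance on their shorter side. From the class of 0 to 499 bp to the last class the share falls from 28.9 to 9.30% in replicate 1 and from 59.0 to 32.6% in replicate 2, and the values on either side of the 5000 bp limit (dashed line) are close.

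Where a replicate did hold an isolated cluster, it mostly did so with 1 cluster, a count not taken for other clusters of the set. More than 1 cluster of the replicate met the isolated cluster in 13 of 149 cases in replicate 1 and in 15 of 495 in replicate 2. Clusters of replicate 2 covered a median of 89.9% of the isolated cluster and those of replicate 1 a median of 64.5%. For other clusters under 8000 bp these medians were 85.1% and 58.1%. At least 90% was covered in 247 members by replicate 2 and in 19 by replicate 1, which was not counted for other clusters. When at least 50% of the isolated cluster had to be covered, 106 members (9.29%) were found in replicate 1, against 16.2% of all set clusters on the 5 arms. Replicate 2 then held 475 (41.6%), against 50.6%.

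Scores in the replicates did not set isolated clusters apart. In replicate 1 the overlapping clusters had a median score of 0.542, and the whole list had a median of 0.548 on the 5 arms. In replicate 2 the medians were 0.566 and 0.550. Their median widths were 1601 bp in replicate 1, where the whole list had 1703 bp, and 1797 bp in replicate 2, where it had 1957 bp. Across the 106 members found in both replicates, the 2 scores had a Spearman's rho of 0.430, and across 3120 other clusters under 8000 bp it was 0.320. The 15 such members on X gave -0.025 and the 91 on the autosomal arms 0.406. Clusters of 2 libraries share their positions and each library its depth, and these values are a description. The score in the set followed that in replicate 2 (rho 0.790, 495 members) more closely than that in replicate 1 (rho 0.464, 149 members).

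Support in the replicates varied with the score in the set. In each score class up to 0.8, a smaller share of members than of other clusters was found in at least 1 replicate. Taken singly, replicate 2 held a slightly larger share of members below 0.3 (33.3%, and 31.5% of the others). The share of members in at least 1 replicate rose from 38.3% of 120 members with scores under 0.3 to 40.3% of 491 from 0.3 to 0.4, 54.0% of 417 from 0.4 to 0.5, 61.4% of 83 from 0.5 to 0.6 and 75.0% of 20 from 0.6 to 0.8. For the other clusters under 8000 bp these shares were 40.1%, 52.9%, 70.7%, 89.2% and 88.0%. Of the 10 members with scores of at least 0.8 it was 30.0% (interval 6.67 to 65.2), and 0 of them overlapped replicate 1. It was 15.4% (interval 5.86 to 30.5) of the 39 other clusters with such scores. Median widths of members moved in parallel, from 1430 bp in the lowest class to 3029 bp from 0.6 to 0.8, and back to 1163 bp in the highest. The other clusters were wider in each class up to 0.8, with medians of 1457, 1761, 2421, 3755 and 4329 bp. The part of width in the lower support of members was not tested within score classes. Below 0.3, 0 of the 120 members were found in both replicates, which allows a share of up to 2.50% when the limit is set at 3 counts and of 3.03% by the exact interval.

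Of the 5 isolated clusters with the highest scores, 1 was found in a replicate. The highest, at 2R 14375372 to 14376372 (1001 bp), scored 2.97, had 9443 and 10065 bp free on its left and right and met no cluster in either replicate. The second, at 3R 3528564 to 3530106 (1543 bp), scored 1.93. Replicate 1 had no cluster there, but replicate 2 had one of 1396 bp with a score of 3.17, the highest of that replicate's whole list on the 5 arms. The other 3 overlapped neither replicate and lay at 2L 21693074 to 21694074 (1001 bp, score 1.82), X 22312460 to 22314152 (1693 bp, score 1.20) and 2R 2194832 to 2196804 (1973 bp, score 1.05).

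The 5 most isolated clusters were under 2000 bp wide, and 4 of them lay on X. The most isolated lay at X 7664750 to 7666494 (1745 bp, score 0.456), with 56509 bp free to its left and 88611 bp to its right. Replicate 2 had a cluster over 88.5% of it (score 0.600), and replicate 1 had none. It was followed by X 18071214 to 18072266 with a shorter side of 52425 bp and X 11151800 to 11153164 with 49355 bp. Next came X 6317992 to 6319088 with 47087 bp and 3R 5123336 to 5124732 with 42717 bp. Of these 4, only the one at 11151800 was found in a replicate, where replicate 2 covered 94.9% of it with a score of 0.498. The cluster of 3R had a low score of 0.204.

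Isolated clusters seen in both replicates existed at large distances on each arm. On 3R the most isolated of them lay at 16947662 to 16952176 (4515 bp, score 0.499) with 24751 and 31227 bp free. It was covered to 62.8% in replicate 1 (score 0.585) and to 53.8% in replicate 2 (score 0.724). On X it was 15649806 to 15652566 (2761 bp) with 40005 and 21857 bp free, scores of 0.602 and 0.580 in replicates 1 and 2, and coverage of 73.9% and 75.1%. On 2L it was 11111234 to 11113776 (2543 bp) with 20613 and 20625 bp free and replicate scores of 0.569 and 0.571. On 3L it was 20355540 to 20363266 (7727 bp), which is also the third-widest member, with a shorter side of 15431 bp. Replicate 1 covered 29.3% of that cluster (score 0.535) and replicate 2 covered 92.1% (score 0.638). On 2R it was 3814654 to 3816930 (2277 bp), with 13023 bp free on the shorter side and scores of 0.439 and 0.514.

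Among isolated clusters found in both replicates, the 5 with the highest mean of their 2 replicate scores were 3289 to 6163 bp wide. A high mean did not require a high score in each replicate. The first, at 2R 10245348 to 10248636 (3289 bp, set score 0.768), scored 0.638 in replicate 1 and 1.41 in replicate 2, with coverage of 43.8% and 78.6%. X 19670648 to 19676810 (6163 bp, set score 0.787) scored 0.678 and 1.11, with 30.7% and 96.7% covered. 3R 14059464 to 14065108 (5645 bp) scored 0.781 and 0.810, with similar coverage of 67.6% and 66.3%. 2L 4405600 to 4411418 (5819 bp) scored 0.597 and 0.897, and the nearest cluster on one side lay 56537 bp away. 3R 25703086 to 25708518 (5433 bp) scored 0.652 and 0.836. Replicate 1 covered less of the cluster than replicate 2 did in 4 of these 5.

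The widest isolated clusters were each found in replicate 2, and 4 of the 5 in replicate 1. The widest, at X 713488 to 721428 (7941 bp, score 0.610), lay in surroundings that set clusters covered to 60.3%, so it was isolated within a dense stretch. 3R 15692690 to 15700620 (7931 bp, score 0.562) was covered to 93.1% by replicate 1 and to 97.3% by replicate 2, each with 2 clusters. 3R 603286 to 610966 (7681 bp, score 0.564) was covered to 71.1% and 97.2%, again with 2 clusters each. X 9570640 to 9578162 (7523 bp, score 0.480) was a single cluster of 7421 bp in replicate 2 (score 0.739) and was absent from the list of replicate 1. What genes lie at these positions was not analysed here.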

How the data were processed

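H3K23ac precipitates and inputs were grouped by their titles. The submitters' processing notes name Bowtie 0.12.7 as the aligner. The authors deposited 3 lists of regions of significant enrichment in FlyBase release 5, per the file headers. Each deposited region has a score, whose scale no header states. For the peak caller, its threshold and the merging of replicates, nothing was stated in the labels or headers. Lists of the inputs were not analysed here. Longer lists can follow from depth or from efficiency of the precipitation, so numbers of clusters are not amounts of H3K23ac.

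Free distance was the number of bases between neighbouring clusters on an arm. Overlap meant at least 1 shared bp, with 50% coverage as an alternative. Shares have exact binomial 95% intervals, which cover counting error only, and clusters of a list are not replicates. With 2 replicates, an exact paired permutation test cannot give a two-sided p below 0.5, and no test across samples was made. Regions were named by fixed rules: highest score, longest shorter flank, greatest width, most isolated in both replicates per arm, highest mean replicate score, and nearest to each threshold. Runs, bins and classes were picked with their values in view. The members and rules were chosen with earlier results of these data known. The only gene table at hand belongs to release 6, so gene positions and sequences were not used. Values came from Python 3.11.15, numpy 2.4.6, pandas 2.3.3 and scipy 1.17.1. On simulated data all 564 isolated clusters of 1500 were recovered with 0 false calls, and so were all 684 overlaps.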

Additional observations from a re-analysis of the deposited data

Results flagged for a closer look

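Sequences outside the 5 arms, which no comparison used, also held clusters that met the width and distance conditions. Chromosome 4, the small chromosome rich in heterochromatin, had 6 among its 34 replicate-set clusters, of which 1 overlapped replicate 1 and 1 overlapped replicate 2. The unplaced sequence U had 12 of 14, with 2 in replicate 1 and 3 in replicate 2. XHet had 4 of 6, with 0 in either replicate. Neighbours on U have no known order in the genome, so distances there are not distances along a chromosome.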

How the results depend on the processing

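No paired analysis was possible because the groups that share replicate numbers, precipitates and inputs, were not compared, and lists of the inputs were not analysed here. The count of 1141 isolated clusters became 2323 with 3000 bp free and 343 with 10000 bp free. With both members and neighbours taken only from the better-scored 50% of the set, the count was 2096. It was within 1.5 times under the 3 other alternatives: 1083 under 4000 bp wide, 1088 when replicate clusters in the flanks broke isolation, and 1136 without the arms' end clusters. Support in at least 1 replicate (47.2%) was 41.4% with 10000 bp free and 26.6% with the better-scored 50% of each replicate list, and it ranged from 13.1 to 43.4% when 1 replicate was left out. Support in both (9.29%) was 5.54% with 10000 bp free, 6.28% under 4000 bp wide, 5.43% with 50% covered, 3.07% with the better-scored 50% and, in an alternative added after the data were seen, 11.5% on the autosomal arms. The width-weighted difference of 0.805 points had no stable sign under the 7 alternatives, from -2.95 without replicate 2 to 2.47 with 50% covered. All 7 lay within the SD between replicates (3.77 points) of it. The values without replicate 2 and without replicate 1 (2.38) define that SD, so this outcome is partly built in. The difference was -0.380 with 3000 bp free and -1.89 with 10000 bp free. The X to autosome ratio of isolated clusters per Mb (1.93) was 1.48 with 3000 bp free, 2.73 with 10000 bp free, 1.13 in the better-scored 50% of the set, 0.780 in replicate 1's own list and 1.23 in replicate 2's own list. Median score (0.394) was 0.404 with 10000 bp free and 0.376 on the autosomal arms, an alternative added later. The cause of these shifts was not tested, beyond the fewer clusters that a stricter condition leaves. Unknown depth limits what absence from a replicate list means.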

Other observations

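Some isolated clusters had exactly the same score. Among the 1141 there were 1041 distinct scores to 9 decimals, and 165 clusters shared theirs with at least 1 other, 98 of them narrower than 1301 bp. The next-longest runs of consecutive isolated clusters, with 6 each, lay on X from 3469816 to 3576526, where 1 of the 6 was found in replicate 1 and 0 in replicate 2, and on X from 5130814 to 5208548, where 0 and 1 were. On 3R the run of 5 from 15913852 to 16023068 spanned 109217 bp, and 1 of its 5 clusters was found in replicate 2 and 0 in replicate 1.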
